A study of Mus musculus with 12 samples.

Results

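The p53 target and growth arrest genes described here are Mdm2, Ccng1, Btg2, Gadd45a, Gadd45b, Gadd45g, Bax, Sesn1, Sesn2 and Phlda3, 10 genes taken by name. Each was represented by the probe set annotated to it alone that had the highest mean log2(intensity + 16) over the 12 arrays. This gave 9 of the 10 genes a value, out of 17097 genes measured, and Bax is not analysed here because no probe set was annotated to it alone. Liver RNA came from adult Socs2-null mice, which carry the null allele on C57BL/6, and from C57BL/6 wildtype mice. The groups were Socs2-null and wildtype liver at 0 h, without an operation, and at 24 h and 36 h after removal of 2/3 of the liver. Each of the 6 groups had 2 arrays, each hybridized with a pool of RNA from 3 animals, so that n is a number of pools and p-values measure the spread between pools. No group had a sham operation, so a change with time holds the loss of liver together with surgery, anaesthesia and the hour of harvest, which cannot be told apart. The sources used here do not state the sex of the animals, and whole liver was used, in which fewer cells of a type and less RNA per cell cannot be told apart.

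The transcription factor p53 accumulates after DNA damage and other stress, binds a pair of decamers in its target genes and raises their transcription. Its targets slow the cell cycle, repair DNA, alter metabolism or open the way to cell death, and one of them, Mdm2, encodes the ubiquitin ligase that marks p53 for degradation, which closes a negative feedback loop. In the regenerating liver hepatocytes leave quiescence and replicate DNA within days, and several of these genes also respond to growth factors, cytokines and nutrient stress without p53.

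Sequences of the 250 bases before the transcription start were matched to all 10 genes from RefSeq (GRCm38.p6), and 3 are shown because they hold the matches named with the results. Letters of the p53 consensus decamer, read on both strands, were found before 5 of the 10 genes, and before 7.13% of all 32851 promoters of this length. A pair of such decamers in tandem was found before 0 of the 10 genes, and before 0.0639% of all promoters. Before Mdm2 the decamer lay at chr10:117710935-117710944, and before the second Sesn1 start at chr10:41887266-41887275. The other 3 matches were GGGCAAGCCT before Ccng1 at chr11:40755462-40755471, GGGCTAGCCC before Gadd45a at chr6:67037438-67037447 and AGGCAAGCTT before Bax at chr7:45467090-45467099. Known p53 sites of several of these genes lie in introns, outside this window. The AP-1 letters TGANTCA were before 0 of the 10 genes, and before 6.75% of all promoters. A match is a description of letters and not of binding. Capitals mark the decamer in the following 2 windows.
Mdm2 (chr10:117710759-117711008, minus strand): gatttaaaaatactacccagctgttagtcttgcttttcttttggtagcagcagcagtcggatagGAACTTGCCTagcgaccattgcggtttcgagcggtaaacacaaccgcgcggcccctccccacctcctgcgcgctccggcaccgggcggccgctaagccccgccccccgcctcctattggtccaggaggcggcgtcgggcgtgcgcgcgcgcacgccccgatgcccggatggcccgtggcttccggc
Sesn1, second start (chr10:41887189-41887438, plus strand): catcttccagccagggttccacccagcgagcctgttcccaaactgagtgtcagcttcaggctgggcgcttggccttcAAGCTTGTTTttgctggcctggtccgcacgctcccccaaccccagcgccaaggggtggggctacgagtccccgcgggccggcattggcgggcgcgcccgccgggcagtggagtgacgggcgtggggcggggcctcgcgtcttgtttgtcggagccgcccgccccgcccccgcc

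After hepatectomy Mdm2 and Gadd45b rose in both genotypes at both times. In wildtype liver Phlda3 rose at 36 h, and Sesn2 rose at 24 h by its brightest probe set but not by its second. Sesn1 fell in wildtype liver at both times and in Socs2-null liver at 36 h. Ccng1, Btg2, Gadd45a and Gadd45g passed the test in none of the 12 comparisons by limma with Benjamini-Hochberg adjustment over all 17097 genes at a threshold of 0.05. No member passed it between the genotypes. In Socs2-null liver 2 of 9 members passed at 24 h, where 24.2% of all genes did, and 3 of 9 at 36 h, where 20% of all genes did. In wildtype liver 4 of 9 passed at 24 h, against 25.8% of all genes, and 4 of 9 at 36 h, against 15.2% of all genes. The background by direction in Socs2-null liver was 10.8% higher and 13.5% lower at 24 h and 9.84% higher and 10.1% lower at 36 h. In wildtype liver it was 10.2% higher and 15.6% lower at 24 h and 5.69% higher and 9.5% lower at 36 h. The median log2 change of the 9 members was 0.39 in Socs2-null and 0.36 in wildtype liver at 24 h, and 0.54 in Socs2-null and 0.35 in wildtype liver at 36 h. With Phlda3 at its bound, or at 0 where it had none, the wildtype median at 36 h was 0.23 and the other 3 were the same. The medians over all genes were -0.04 in Socs2-null and -0.08 in wildtype liver at 24 h, and -0.03 in Socs2-null and -0.06 in wildtype liver at 36 h. Comparisons of 24 h and 36 h within a genotype share the 0 h pools.

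**Figure D1:**
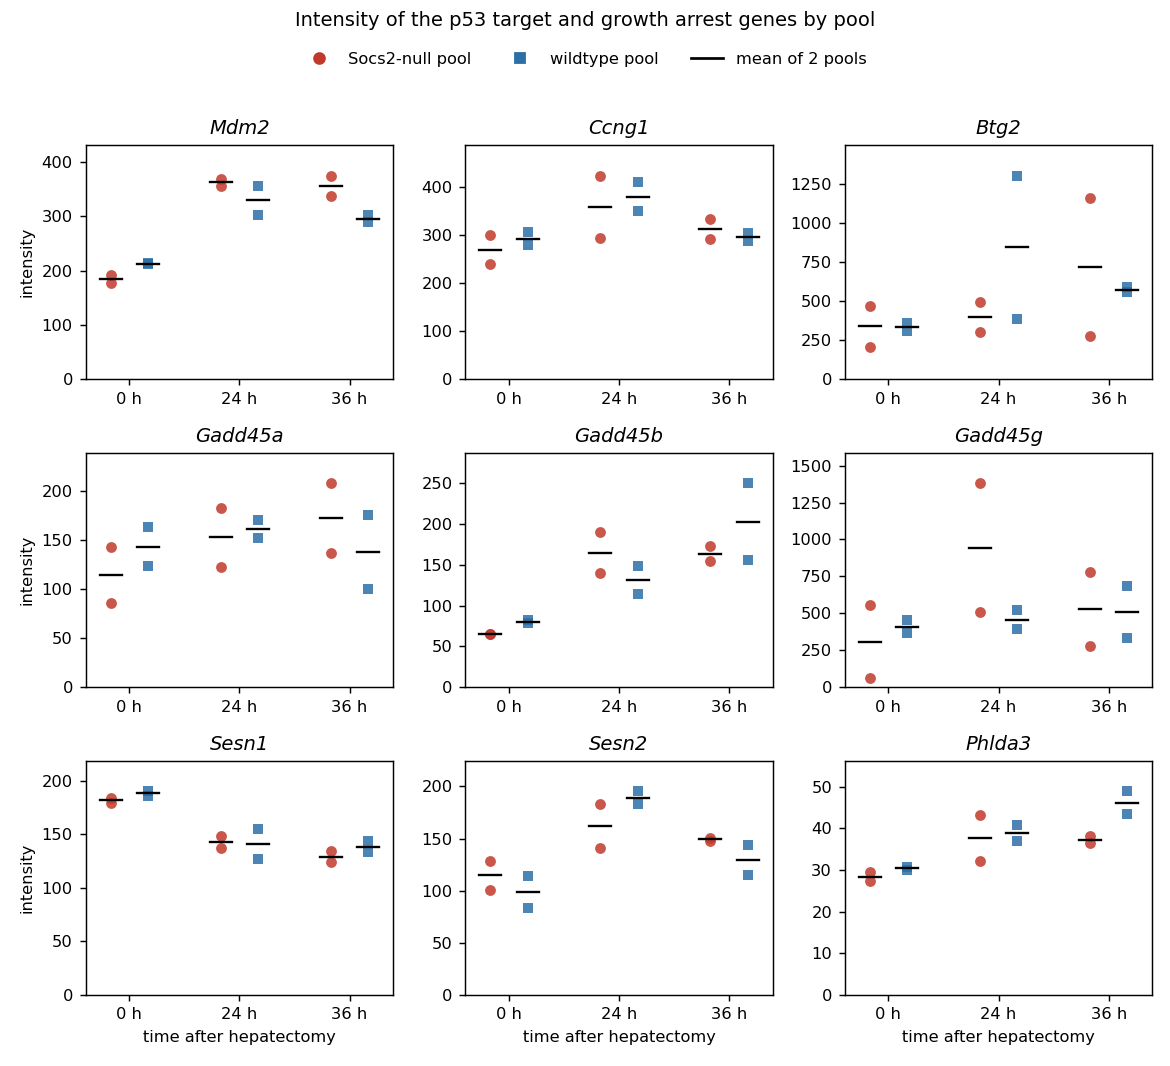
Intensity (linear scale, from 0) of the 9 genes in every pool at 0, 24 and 36 h, with circles for Socs2-null pools, squares for wildtype pools and a black bar for the mean of 2 pools. Mdm2 and Gadd45b stand higher after surgery in both genotypes and Sesn1 lower, while the 2 pools of a group lie far apart for Btg2 and Gadd45g.

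Mdm2, the feedback ligase, rose in all 4 comparisons with 0 h. Its brightest probe set (1423605_PM_a_at) read 191 and 176 (0 h), 356 and 368 (24 h) and 375 and 336 (36 h) in Socs2-null liver. In wildtype liver the same probe set read 213 and 211 (0 h), 303 and 356 (24 h) and 289.6 and 302 (36 h). All 8 pools taken after surgery lay above all 4 unoperated pools. Against 0 h, 27.5% of all genes read higher without overlap in Socs2-null liver at 24 h and 28.4% at 36 h. In wildtype liver 26.9% did at 24 h and 24.3% at 36 h. The share over both genotypes and times together was not computed. The log2 change in Socs2-null liver was 0.92 ± 0.12 at 24 h (1.89-fold, adjusted p = 0.000651 by limma) and 0.89 ± 0.12 at 36 h (adjusted p = 0.000789 by limma). The wildtype change was 0.59 ± 0.12 at 24 h (1.51-fold, adjusted p = 0.00653 by limma) and 0.45 ± 0.12 at 36 h (adjusted p = 0.0316 by limma). Without wildtype 0 h pool 1 or pool 2 the wildtype call at 24 h was lost (adjusted p = 0.0513 and 0.0573 by limma). The wildtype call at 36 h was lost when either pool of wildtype 36 h, Socs2-null 0 h or wildtype 0 h liver was left out, with adjusted p between 0.0503 and 0.175 by limma. A second, dimmer Mdm2 probe set (1427718_PM_a_at), tested among all 28898 probe sets with 1 gene, rose in Socs2-null liver by 0.71 ± 0.14 log2 units at 24 h and 0.66 ± 0.14 at 36 h (adjusted p = 0.00459 and 0.00734 by limma). In wildtype liver its log2 change was 0.13 ± 0.14 at 24 h and 0.38 ± 0.14 at 36 h and was not called (adjusted p = 0.535 and 0.0962 by limma).

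Between the genotypes the pools of the brightest Mdm2 probe set did not overlap at any of the 3 times, though at 24 h the lower Socs2-null pool read 355.95 and the higher wildtype pool 355.82. Socs2-null liver was lower at 0 h (log2 difference -0.19 ± 0.12), higher at 24 h (0.13 ± 0.12) and higher at 36 h (0.25 ± 0.12). None of the 3 differences passed the test (adjusted p = 1.00, 0.812 and 0.789 by limma). The fitted log2 rise after surgery was larger in Socs2-null liver by 0.33 ± 0.17 at 24 h and 0.44 ± 0.17 at 36 h. Neither difference passed the test. At 36 h this difference of responses had an unadjusted p of 0.0259 and an adjusted p of 0.999 by limma, so it did not pass. The second probe set was lower in Socs2-null liver at 0 h (101.3 and 89.0, against 114.7 and 108.5 in wildtype liver). At 24 h it was higher (172 and 160, against 144 and 106), by 0.38 ± 0.14 log2 units (unadjusted p = 0.0194, adjusted p = 0.49 by limma). The second probe set overlapped between the genotypes at 36 h, with 156.1 and 162.3 in Socs2-null and 156.8 and 143.8 in wildtype liver. Its difference of responses was 0.58 ± 0.20 log2 units at 24 h (unadjusted p = 0.0129, adjusted p = 1.00 by limma) and 0.28 ± 0.20 at 36 h, the reverse order of the brightest probe set. By group mean Mdm2 was highest in Socs2-null 24 h liver, then Socs2-null 36 h, wildtype 24 h and wildtype 36 h. Wildtype 0 h and Socs2-null 0 h liver came last, in that order.

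**Figure D2:**
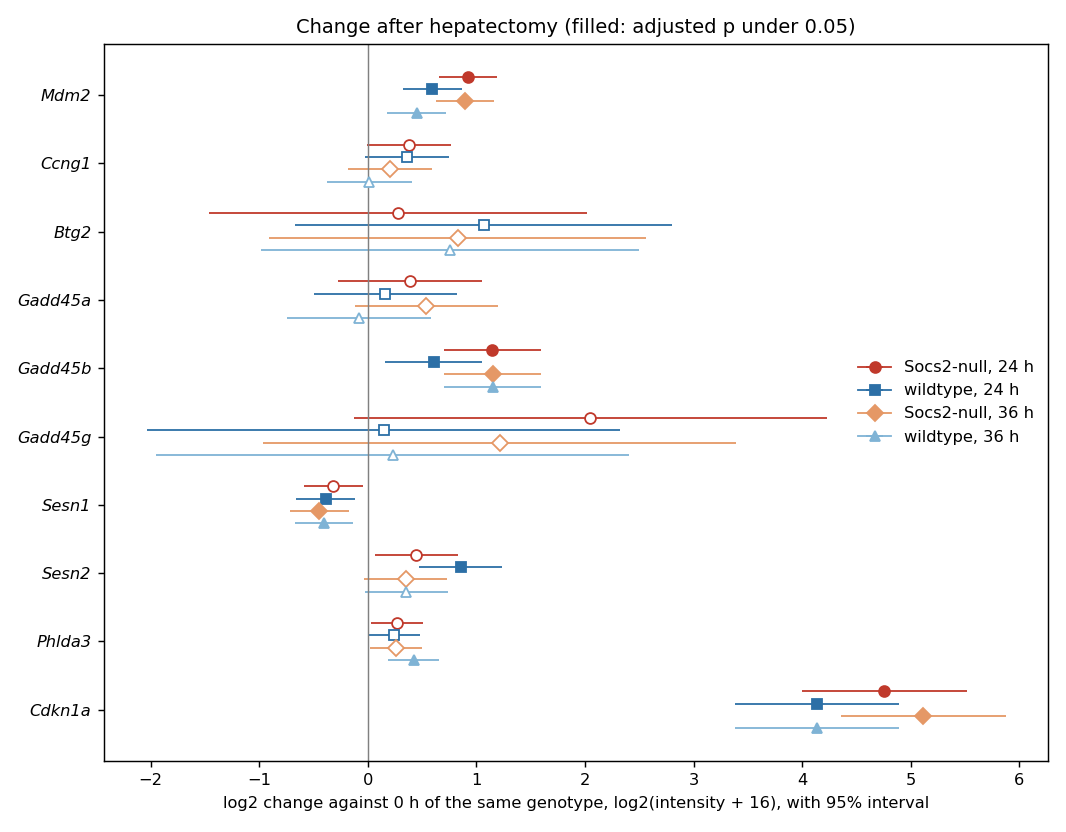
Log2 change against 0 h of the same genotype (horizontal axis, log2(intensity + 16), with its 95% interval) for the 9 genes and for Cdkn1a, another p53 target, in Socs2-null and wildtype liver at 24 h and 36 h. Phlda3 is set against 0 h groups under background. Filled symbols passed the threshold, as all 4 did for Mdm2, Gadd45b and Cdkn1a, and the intervals of Btg2 and Gadd45g span more than those of the other members.

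Ccng1 encodes cyclin G1, a p53-induced protein that recruits protein phosphatase 2A, and Mdm2 is one of the substrates. The brightest Ccng1 probe set (1420827_PM_a_at) read 301 and 239 (0 h), 424 and 295 (24 h) and 292 and 333 (36 h) in Socs2-null pools. Wildtype pools gave 279.6 and 306 (0 h), 410.3 and 350.2 (24 h) and 288 and 304 (36 h). The wildtype pools at 24 h lay above those at 0 h, as for 26.9% of all genes. The Socs2-null pools at 24 h overlapped with those at 0 h. The log2 change at 24 h was 0.38 ± 0.18 in Socs2-null and 0.36 ± 0.18 in wildtype liver (adjusted p = 0.14 and 0.156 by limma). At 36 h it was 0.21 ± 0.18 in Socs2-null and 0.02 ± 0.18 in wildtype liver (adjusted p = 0.455 and 0.964 by limma). Without Socs2-null 24 h pool 2 the Socs2-null change at 24 h was 0.63 and passed (adjusted p = 0.0334 by limma).

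The other Ccng1 probe sets gave larger changes than the brightest at 36 h. The second (1450016_PM_at) rose in Socs2-null liver by 0.45 ± 0.12 log2 units at 24 h and 0.69 ± 0.12 at 36 h (adjusted p = 0.0244 and 0.00303 by limma). Its wildtype change was 0.21 ± 0.12 at 24 h (adjusted p = 0.237 by limma) and 0.56 ± 0.12 at 36 h (adjusted p = 0.0138 by limma). The third (1450017_PM_at) was higher in all 4 comparisons, by 0.33 to 0.42 on the log2 scale, and passed in none. The absence of a Ccng1 call therefore held for the brightest probe set and not for the second.

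**Figure D3:**
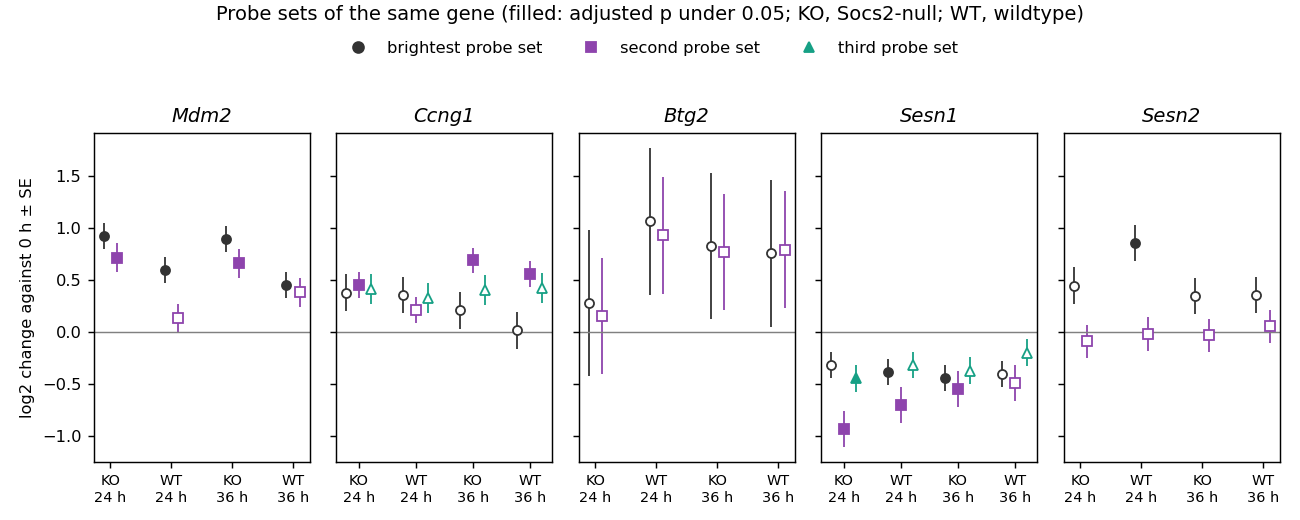
Log2 change against 0 h ± SE (vertical axis) of every probe set annotated to 1 gene alone, for the 5 members with more than 1, in Socs2-null (KO) and wildtype (WT) liver at 24 h and 36 h; filled symbols passed the threshold over 28898 probe sets. The probe sets of a gene had the same sign in all 4 comparisons for Mdm2, Ccng1, Btg2 and Sesn1, with those of Ccng1 unlike in size and in passing, while the 2 of Sesn2 had opposite signs in 3 of 4.

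Btg2 encodes an antiproliferative protein that binds the CCR4-NOT deadenylase, and it is induced both by p53 and, as an immediate-early gene, by growth factors. Its promoter was the only one of the 10 with the cAMP response element TGACGTCA, in capitals in the window that follows (chr1:134079314-134079321), which was before 1.55% of all promoters. No match of one motif overlapped with a match of another in these windows.
Btg2 (chr1:134079156-134079405, minus strand): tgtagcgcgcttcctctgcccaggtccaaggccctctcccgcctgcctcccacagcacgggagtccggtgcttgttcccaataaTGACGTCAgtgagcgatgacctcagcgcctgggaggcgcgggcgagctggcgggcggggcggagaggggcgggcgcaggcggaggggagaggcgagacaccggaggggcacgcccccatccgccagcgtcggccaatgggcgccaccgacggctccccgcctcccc

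Its brightest probe set (1416250_PM_at) read 208 and 471 (0 h), 300.03 and 493 (24 h) and 1163 and 276 (36 h) in the Socs2-null pools. The wildtype pools read 362 and 306 (0 h), 1304 and 388 (24 h) and 558 and 588 (36 h). A single pool stood far above its partner in wildtype liver at 24 h and in Socs2-null liver at 36 h. The largest Btg2 change was a log2 change of 1.07 ± 0.75 in wildtype liver at 24 h (adjusted p = 0.331 by limma). In Socs2-null liver it was 0.28 ± 0.75 at 24 h and 0.83 ± 0.75 at 36 h (adjusted p = 0.822 and 0.491 by limma). At 36 h in wildtype liver both pools lay above both at 0 h, as for 24.3% of all genes. The log2 change there was 0.76 ± 0.75 (adjusted p = 0.545 by limma). This change passed when the compared arrays were fitted alone (adjusted p = 0.0137 by limma). A second Btg2 probe set (1448272_PM_at) gave log2 changes of 0.15 ± 0.56 and 0.77 ± 0.56 in Socs2-null and 0.93 ± 0.56 and 0.79 ± 0.56 in wildtype liver at 24 h and 36 h, and passed in none.

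Gadd45a, Gadd45b and Gadd45g encode small acidic proteins that bind the kinase MEKK4, CDK1 and PCNA. Gadd45a is a direct p53 target, whereas Gadd45b is known in liver for its induction by NF-kappaB and growth signals. Gadd45b was the family member that passed the test, in all 4 comparisons with 0 h. It read 64.6 and 65.4 (0 h), 139 and 191 (24 h) and 173 and 155 (36 h) in Socs2-null liver. Its wildtype values were 78.3 and 82.3 (0 h), 115 and 149 (24 h) and 156 and 250.1 (36 h). No pool after surgery was as low as any unoperated pool. In a single comparison with 0 h, 24.3% to 28.4% of all genes were higher without overlap. The log2 change in Socs2-null liver was 1.15 ± 0.20 at 24 h and 1.15 ± 0.20 at 36 h (adjusted p = 0.00271 and 0.00294 by limma). In wildtype liver it was 0.61 ± 0.20 at 24 h and 1.15 ± 0.20 at 36 h (adjusted p = 0.0475 and 0.00437 by limma). The wildtype 24 h call was lost when either pool of wildtype 24 h, Socs2-null 36 h, Socs2-null 0 h or wildtype 0 h liver was left out, with adjusted p between 0.056 and 0.25 by limma. From 24 h to 36 h the wildtype level was higher by 0.54 ± 0.20 log2 units (unadjusted p = 0.0216, adjusted p = 0.253 by limma).

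Gadd45a read 85.7 and 142 (0 h), 123 and 182 (24 h) and 207 and 136 (36 h) in Socs2-null liver. For Gadd45a the wildtype values were 162 and 123 (0 h), 169.7 and 152 (24 h) and 99.7 and 175 (36 h). Every group after surgery overlapped with its own 0 h group. The log2 changes were 0.39 and 0.54 in Socs2-null and 0.16 and -0.08 in wildtype liver at 24 h and 36 h, each ± 0.30, and none passed. Gadd45g was the most variable member. It read 553 and 59.4 (0 h), 511 and 1381 (24 h) and 777 and 275 (36 h) in Socs2-null liver. The wildtype Gadd45g values were 452 and 367 (0 h), 523 and 391 (24 h) and 688 and 334 (36 h). Among the unoperated Socs2-null pools the first read 9.31 times the second. Its Socs2-null log2 change at 24 h was 2.05 ± 0.94 (adjusted p = 0.153 by limma), and without Socs2-null 0 h pool 1 it was 3.51 and passed (adjusted p = 0.0212 by limma). The wildtype change was 0.15 ± 0.94 at 24 h and 0.23 ± 0.94 at 36 h.

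Sesn1 and Sesn2 encode sestrins, stress-induced proteins that restrain the growth kinase complex mTORC1 through GATOR2. Both are p53 targets, and Sesn2 is also induced by the amino acid and endoplasmic reticulum stress factor ATF4. In wildtype liver at 24 h Sesn1 fell and Sesn2 rose, by the brightest probe set of each. The brightest Sesn1 probe set (1433711_PM_s_at) read 179.6 and 184 (0 h), 137 and 148 (24 h) and 134 and 124 (36 h) in Socs2-null liver. Sesn1 in wildtype liver read 186 and 190.2 (0 h), 126 and 155 (24 h) and 133 and 144 (36 h). All 8 pools after surgery lay below all 4 unoperated pools. Against 0 h, 34.5% of all genes read lower without overlap in Socs2-null liver at 24 h and 33.6% at 36 h. In wildtype liver 43.8% did at 24 h and 40.3% at 36 h. The log2 change in Socs2-null liver was -0.32 ± 0.12 at 24 h, which did not pass (adjusted p = 0.0825 by limma), and -0.45 ± 0.12 at 36 h (adjusted p = 0.0259 by limma). In wildtype liver Sesn1 fell, with a log2 change of -0.39 ± 0.12 at 24 h and -0.40 ± 0.12 at 36 h (adjusted p = 0.0385 and 0.0482 by limma).

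These Sesn1 calls lay close to the threshold. The wildtype call at 36 h was lost without any 1 pool of the 4 groups at 0 h and 36 h (adjusted p from 0.0518 to 0.228 by limma). At 24 h it was lost without wildtype 24 h pool 1 or either pool of Socs2-null or wildtype 0 h liver (adjusted p from 0.0577 to 0.228 by limma). In Socs2-null liver the call at 36 h was lost without either pool of Socs2-null 36 h or 0 h liver (adjusted p from 0.0563 to 0.129 by limma). With each array centred on its median the wildtype changes were -0.28 at 24 h and -0.34 at 36 h and did not pass. All 3 Sesn1 probe sets were lower in all 4 comparisons. Tested among all probe sets, 2 of the 3 passed in Socs2-null liver at 24 h and 2 at 36 h. In wildtype liver 2 passed at 24 h and 0 at 36 h. Which genotype and time passed therefore depended on the probe set. The second (1438931_PM_s_at) fell by more than the brightest at 24 h, with a log2 change of -0.93 ± 0.17 in Socs2-null and -0.71 ± 0.17 in wildtype liver (adjusted p = 0.00337 and 0.0143 by limma).

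Sesn2 by its brightest probe set (1451599_PM_at) read 101 and 129 (0 h), 141 and 184 (24 h) and 148 and 151 (36 h) in Socs2-null liver. The wildtype Sesn2 values were 82.9 and 114 (0 h), 183 and 196 (24 h) and 115 and 144 (36 h). In wildtype liver both 24 h pools lay above the pools of every other wildtype time. Sesn2 rose in wildtype liver at 24 h by 0.86 ± 0.17 log2 units (adjusted p = 0.00622 by limma), and its log2 change was 0.45 ± 0.17 in Socs2-null liver (adjusted p = 0.0852 by limma). The difference between the genotypes in this response was -0.41 ± 0.25 (adjusted p = 1.00 by limma), so the responses were not shown to differ. Without wildtype 0 h pool 1 the wildtype change was 0.66 and did not pass (adjusted p = 0.0698 by limma). Without Socs2-null 24 h pool 1 the Socs2-null change was 0.62 and passed (adjusted p = 0.0477 by limma). At 36 h the change was 0.35 ± 0.17 in Socs2-null and 0.35 ± 0.17 in wildtype liver, and neither passed. The second Sesn2 probe set (1425139_PM_at) did not show the 24 h rise, with a log2 change of -0.09 ± 0.16 in Socs2-null and -0.02 ± 0.16 in wildtype liver. At 0 h it read above the brightest, with means of 129.58 against 114.68 in Socs2-null and 129.25 against 98.38 in wildtype liver. The brightest was chosen by its mean over all arrays, which includes the 24 h pools.

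Phlda3 encodes a pleckstrin homology protein that competes with the kinase AKT for membrane lipids. It exceeded background, taken as the highest of 17 tag controls on the same array, on 4 of 12 arrays, while the other 8 members exceeded it on all 12. Phlda3 read 29.6 and 27.3 (0 h), 43.3 and 32.2 (24 h) and 36.5 and 38.1 (36 h) in Socs2-null liver. Phlda3 in wildtype liver read 30.8 and 30.0 (0 h), 37.1 and 40.7 (24 h) and 43.4 and 49.0 (36 h). The 0 h pools of both genotypes lay under background, so that a fold against them is at most a bound. Of the 2 wildtype 36 h pools, pool 1 read 43.43 against its tag control of 43.46, so that only pool 2 exceeded background. Phlda3 rose in wildtype liver at 36 h by at least 1.09-fold, with pool 1 taken at its own reading (adjusted p = 0.0247 by limma). The call was lost without wildtype 36 h pool 2 or either wildtype 0 h pool (adjusted p from 0.11 to 0.155 by limma). Both Socs2-null pools at 36 h exceeded background. In Socs2-null liver, where the values after surgery gave no bound over 1, Phlda3 did not pass at 24 h or 36 h (adjusted p = 0.0943 and 0.114 by limma). At 24 h it passed without Socs2-null 24 h pool 2 (adjusted p = 0.027 by limma), a call that rests on a 0 h group under background.

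Loss of Socs2 gave no call among the 9 members at any time. At 0 h limma called 0 of 9, and 0% of all genes, with 0 members at an unadjusted p under 0.05. At 24 h it called 0 of 9, against 0.0117% of all genes, and at 36 h 0 of 9, against 0.0234%, with 0 members at an unadjusted p under 0.05 at either time. Over the mean of the 3 times it called 0 of 9, against 0.0292% of all genes, with 0 members at an unadjusted p under 0.05. These counts are of the brightest probe sets. Tested singly, the second Ccng1 probe set was lower in Socs2-null liver at 0 h and over the 3 times (unadjusted p = 0.0362 and 0.0348 by limma). The second Mdm2 probe set was higher at 24 h (unadjusted p = 0.0194 by limma). None of these differences passed after adjustment (adjusted p = 0.949, 0.48 and 0.49 by limma). The 95% interval of the Socs2-null minus wildtype difference over the 3 times was -0.09 to 0.22 on the log2 scale for Mdm2, -0.19 to 0.12 for Sesn1 and -1.33 to 1.19 for Gadd45g. At 0 h both Socs2-null pools lay below both wildtype pools for 3 of the 8 members over background, Mdm2, Gadd45b and Sesn1. The same held for 26.3% of the 13350 genes over background in at least 1 genotype, and for 27.9% of all genes. The second Mdm2 probe set kept this order, while the other Sesn1 probe sets did not. Sesn1 probe set 1454699_PM_at read higher in Socs2-null liver (95.6 and 112, against 89.2 and 91.3 in wildtype liver), and 1438931_PM_s_at overlapped. Phlda3 was under background in both genotypes at 0 h and has no order at that time. The median difference of the 9 members was -0.12 with Phlda3 at its fitted value or at 0, against -0.04 over all genes. At 24 h Mdm2 was the 1 member with both Socs2-null pools above both wildtype pools, as were 15% of all genes. At 36 h Mdm2 and Sesn2 were higher without overlap, against 15.2% of all genes, and Phlda3 read lower, against 17.6%. For Phlda3 wildtype pool 1 lay under its tag control (43.43 against 43.46), while both Socs2-null pools exceeded theirs. Its order at 36 h is thus one of readings near background. The second probe sets of Mdm2 and Sesn2 overlapped between the genotypes at 36 h, with log2 differences of 0.08 ± 0.14 and -0.09 ± 0.16.

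The response after surgery was not shown to differ between the genotypes either. At 24 h limma called 0 of 9 differences of response, and 0% of all genes, with 0 members at an unadjusted p under 0.05. At 36 h it called 0 of 9, against 0.00585% of all genes, and Mdm2 alone had an unadjusted p under 0.05, as had 3.74% of all genes. Between 36 h and 24 h in Socs2-null liver it called 0 of 9, against 0.00585% of all genes, with 0 at an unadjusted p under 0.05. In wildtype liver it called 0 of 9, against 0.24% of all genes, with 2 at an unadjusted p under 0.05, Gadd45b and Sesn2, as had 14.9% of all genes. Sesn2 was lower at 36 h than at 24 h there (log2 change -0.50 ± 0.17, unadjusted p = 0.0148, adjusted p = 0.232 by limma).

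The members differed widely in how well the 2 pools of a group matched. The SD between pools on the log2 scale was 1.07 for Gadd45g and 0.855 for Btg2, the widest of the members, against a median of 0.131 over all genes. It was 0.371 for Gadd45a, at percentile 97.2 of all genes, and 0.243 for Gadd45b, at percentile 89.1. Mdm2 had 0.0859, at percentile 16.9, and Sesn1 0.0914, at percentile 20.5. Sesn2, Ccng1 and Phlda3 had 0.195, 0.194 and 0.101. The larger pool of a group exceeded the smaller by up to 9.31 times for Gadd45g and 4.22 times for Btg2, where the median over genes of the highest such ratio was 1.34. The 95% interval of the log2 change in Socs2-null liver at 24 h was -1.46 to 2.02 for Btg2 and -0.13 to 4.23 for Gadd45g, against 0.65 to 1.19 for Mdm2.

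**Figure D4:**
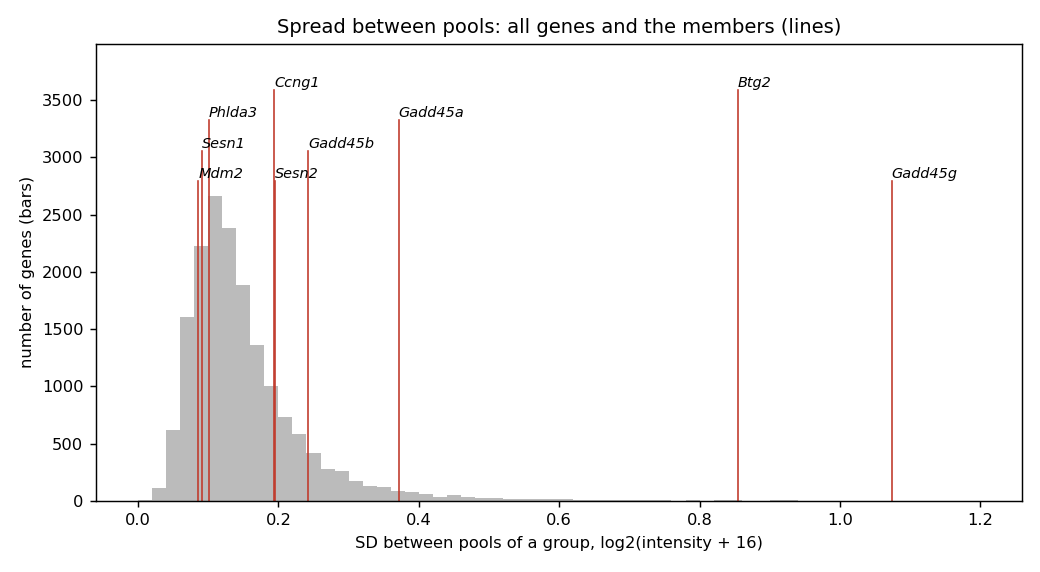
Number of genes (bars, vertical axis) by the SD between the 2 pools of a group on the log2(intensity + 16) scale (horizontal axis), with a line at each of the 9 members. Mdm2, Sesn1 and Phlda3 lie below the median of 0.131, Phlda3 with readings near background, and Gadd45g and Btg2 lie in the far right tail.

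Btg2 and Gadd45a read higher in the same pools, as did some immediate-early genes. In 6 of 6 groups the pool that read higher for Btg2 also read higher for Gadd45a. The same pool was higher for Jun, Ier2 and Atf3, transcription factor and response genes induced within an hour of a stimulus, in 6 of 6 groups. These 3 are named after their values were seen. Of the 11 measured immediate-early genes 8 matched Btg2 in 5 or 6 groups, while Fosb and Egr1 matched it in 4 and Dusp1 in 3. Of all genes, 2.66% matched Btg2 in all 6 groups and 13.2% in 5 or 6. Mdm2 matched 0 of the 11 in all 6 groups and 3 of the 11 in at least 5, where 13.5% of all genes did. Another pair of members, Gadd45b and Sesn1, also matched each other in 6 of 6 groups, where 1.74% of all genes matched Gadd45b. Sesn2 matched Gadd45b and Sesn1 in 5 groups each. The correlation of Btg2 with Gadd45a across the 12 arrays was 0.66, and 0.68 for the deviations from group means. The part of this shared variation in the results for Btg2 and Gadd45a was not tested.

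Across the 12 arrays, which share the 6 group means, Mdm2 and Gadd45b had a Pearson correlation of 0.86, and Mdm2 and Sesn1 of -0.82. For the deviations from group means the value of Mdm2 and Sesn1 had the opposite sign, 0.84. Among the 10220 other genes over background on all arrays, those most like Mdm2 were Hnrnpab (r = 0.976) and Sec13 (r = 0.973). Those most like Gadd45b were Gsr (r = 0.969) and S100a11 (r = 0.960), and those most like Sesn1 were Gab1 (r = 0.972) and Grcc10 (r = 0.968). Sesn2 was most like Bms1 (r = 0.952) and Trmt5 (r = 0.942), Btg2 most like Dmtf1 (r = 0.937) and Zfp110 (r = 0.884) and Gadd45a most like Cbfb (r = 0.901) and Zcchc7 (r = 0.869). Ccng1 was most like Pola1 (r = 0.882) and Tbc1d8b (r = 0.878), Gadd45g most like Zfp93 (r = 0.891) and Trappc11 (r = 0.863) and Phlda3 most like Gstm2 (r = 0.951) and Arpp19 (r = 0.935).

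Of 30 further p53 target genes measured, 6 rose and 4 fell in Socs2-null liver at 24 h, and 5 rose and 5 fell in wildtype liver. At 36 h 6 rose and 2 fell in Socs2-null liver, and 2 rose and 2 fell in wildtype liver. Of all genes, 10.8% rose and 13.5% fell in Socs2-null liver at 24 h, and 10.2% and 15.6% in wildtype liver. At 36 h 9.84% rose and 10.1% fell in Socs2-null liver, and 5.69% and 9.5% in wildtype liver. The counts of the gene and marker lists below stand against the same shares. Among these further p53 targets Cdkn1a, the p21 inhibitor of cyclin-dependent kinases, had the largest change. It read 43.5 and 45.8 (0 h), 1443 and 1828 (24 h) and 2375 and 1833 (36 h) in Socs2-null liver. Its wildtype values ran 49.7 and 42.7 (0 h), 1643 and 702 (24 h) and 861 and 1338 (36 h). Here too all 8 pools after surgery lay above all 4 unoperated pools. In a single comparison with 0 h this order without overlap was found for 24.3% to 28.4% of all genes. The log2 change was 4.76 ± 0.34 at 24 h and 5.12 ± 0.34 at 36 h in Socs2-null liver and 4.14 ± 0.34 and 4.13 ± 0.34 in wildtype liver (adjusted p = 3.44e-05, 2.4e-05, 0.000116 and 0.000149 by limma). At 36 h both Socs2-null pools lay above both wildtype pools of Cdkn1a, and the difference of 0.95 ± 0.34 did not pass (unadjusted p = 0.019, adjusted p = 0.656 by limma).

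Aen, an exonuclease of the apoptotic response, rose in Socs2-null liver by 0.62 ± 0.18 log2 units at 24 h and 0.72 ± 0.18 at 36 h and in wildtype liver by 0.89 ± 0.18 log2 units at 24 h. Apaf1, the scaffold of the apoptosome, averaged 75.3 ± 17.3 at 24 h and 41.4 ± 2.86 at 0 h in Socs2-null liver, and 69.9 ± 22.8 at 24 h and 33.9 ± 0.368 at 0 h in wildtype liver (SD, n = 2 pools each). It rose in all 4 comparisons, and against wildtype 0 h liver, which was under background, by at least 1.61-fold at 24 h and at least 1.40-fold at 36 h. Fas, a death receptor, rose in Socs2-null liver at 24 h by 0.75 ± 0.17 log2 units (adjusted p = 0.00891 by limma). Bbc3, the BCL2 family protein PUMA, fell in all 4 comparisons, with log2 changes of -0.54 and -0.47 in Socs2-null and -0.45 and -0.50 in wildtype liver at 24 h and 36 h. Pltp, the phospholipid transfer protein, fell in all 4 as well, with -0.37 and -0.34 in Socs2-null and -0.43 and -0.62 in wildtype liver. Steap3, a ferrireductase, fell in wildtype liver at 24 h (log2 change -0.90 ± 0.15) and was higher at 36 h than at 24 h there by 0.91 ± 0.15 log2 units (adjusted p = 0.0374 by limma). Genes known to promote cell death thus stood on both sides, with Apaf1 and Aen higher and Bbc3 lower. The other genes of this list that passed, named after their values were seen, were Zmat3, Polk, Trp53inp1 and Cgref1, which rose, and Rrm2b and Ptprv, which fell, each in 1 or 2 of the 4 comparisons or, for Zmat3, in 3.

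Of 13 genes for p53 regulators and relatives, 2 rose and 0 fell in Socs2-null liver at 24 h, and 2 rose and 0 fell at 36 h. In wildtype liver 1 rose and 1 fell at 24 h, and 3 rose and 0 fell at 36 h. Trp53 itself is not analysed here, for the same reason as Bax. Chek1, the checkpoint kinase upstream of p53, was under background in both genotypes at 0 h and rose in all 4 comparisons, by at least 1.68-fold at 24 h and 1.49-fold at 36 h in Socs2-null liver and at least 1.38-fold and 1.20-fold in wildtype liver. Rpl11, a ribosomal protein that binds MDM2, rose in Socs2-null liver by 0.40 ± 0.09 log2 units at 24 h and 0.41 ± 0.09 at 36 h and in wildtype liver at 36 h by 0.36 ± 0.09 log2 units. Hipk2, a kinase of p53, rose in wildtype liver at 36 h by 0.63 ± 0.18 log2 units, and Trp63, a p53 relative, fell in wildtype liver at 24 h (log2 change -0.51 ± 0.14). Mdm4, the partner of Mdm2, passed in none of the 4 comparisons, with log2 changes from -0.10 to 0.06.

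Among 10 relatives of the members, 2 rose and 1 fell in Socs2-null liver at both 24 h and 36 h, 2 rose and 1 fell in wildtype liver at 24 h, and 2 rose and 0 fell at 36 h. Btg3, of the same antiproliferative family as Btg2, averaged 1174 ± 459 at 24 h and 231 ± 18.5 at 0 h in Socs2-null liver (SD, n = 2 pools each). Wildtype liver averaged 1231 ± 277 at 24 h and 248 ± 6.33 at 0 h. It rose in all 4 comparisons, by log2 changes of 2.22 and 2.56 in Socs2-null and 2.22 and 2.07 in wildtype liver at 24 h and 36 h, where Btg2 itself passed in none. Tob1, another protein of that family, fell in Socs2-null liver at 24 h and 36 h (log2 changes -1.12 and -0.83) and in wildtype liver at 24 h (-0.83). Bak1, a pore former like Bax, rose in Socs2-null liver by 0.52 ± 0.10 log2 units at 24 h and 0.43 ± 0.10 at 36 h and in wildtype liver at 24 h by 0.35 ± 0.10 log2 units. Phlda2, a relative of Phlda3, rose in wildtype liver at 36 h by 0.55 ± 0.13 log2 units.

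Of the 13 BCL2 family genes measured, 0 rose and 3 fell in Socs2-null liver at 24 h and 2 rose and 3 fell at 36 h. In wildtype liver 1 rose and 3 fell at 24 h, and 0 rose and 3 fell at 36 h. Bmf, Bik and Bbc3, all BH3-only proteins that promote cell death, were the 3 that fell each time, and Bbc3 is on the list of p53 targets as well. Bmf averaged 46.9 ± 4.02 at 24 h and 269 ± 28.5 at 0 h in Socs2-null liver, and 43.8 ± 5.27 at 24 h and 266 ± 13.1 at 0 h in wildtype liver (SD, n = 2 pools each). The survival genes Mcl1 and Bcl2l1 rose in Socs2-null liver at 36 h, by 0.80 ± 0.21 log2 units and 1.19 ± 0.32, and Mcl1 rose in wildtype liver at 24 h by 0.73 ± 0.21 log2 units. Of 15 proliferation genes, 4 rose at 24 h and 3 at 36 h in Socs2-null liver, and 3 at 24 h and 1 at 36 h in wildtype liver, and 0 fell. The share of all genes that rose was 10.8% and 9.84% in Socs2-null liver, and 10.2% and 5.69% in wildtype liver. Mcm2 and Mcm5, subunits of the replicative helicase, rose in Socs2-null liver at both times and in wildtype liver at 24 h, and Mcm2 rose there at 36 h too, by at least 3.25-fold. Pcna, the replication clamp, rose by 1.10 ± 0.17 log2 units at 24 h and 0.84 ± 0.17 at 36 h in Socs2-null liver and by 1.06 ± 0.17 log2 units at 24 h in wildtype liver. Of 11 immediate-early genes, 0 were called in Socs2-null liver at 24 h or 36 h, and in wildtype liver 2 rose and 1 fell at 24 h and 0 were called at 36 h by limma. At an unadjusted p under 0.05 they numbered 0 at 24 h and 3 at 36 h in Socs2-null liver and 1 at 36 h in wildtype liver, where 37.7%, 33.3% and 30.4% of all genes had one. Those called were Atf3, which rose by at least 3.19-fold, Dusp1, a phosphatase of MAP kinases, which fell (log2 change -1.02 ± 0.30), and Fos, which rose (log2 change 1.60 ± 0.46) and is named after its values were seen. Of the 90 genes on these 6 lists, 0 were called between the genotypes at 0, 24 or 36 h by limma. An unadjusted p under 0.05 was found for 3, 14 and 10 of them (3.33%, 15.6% and 11.1%), against 4.95%, 8.24% and 6.44% of all genes.

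The 12 arrays had median intensities from 43.5 to 52.3 and mean intensities from 248 to 259, and the depth of an array is not a count, so the number of pools limits the precision. Socs2 was under background in Socs2-null liver at each time, at least 9.47-, 5.19- and 6.31-fold lower than in wildtype liver at 0, 24 and 36 h. The 18 hybridization controls had a mean log2 intensity of 9.01 to 9.23 in Socs2-null and 9.07 to 9.21 in wildtype liver at 36 h, against 9.86 to 9.97 in Socs2-null and 9.95 to 9.98 in wildtype liver at 0 h. The summed intensity of 3 erythroid markers after surgery was 2673 to 3855 in Socs2-null and 3404 to 4174 in wildtype liver at 24 h, against 8259.9 to 8424 in Socs2-null and 8179 to 8186 in wildtype liver at 0 h. The sum of 8 hepatocyte markers was 92748 to 97372 in Socs2-null and 94656 to 95976 in wildtype liver at 36 h, against 108037 to 108264 in Socs2-null and 108051 to 108082 in wildtype liver at 0 h. Of these 8, 1 rose and 3 fell in Socs2-null liver at 36 h, and 0 rose and 5 fell in wildtype liver. The sum of 6 neutrophil markers reached 1856 in Socs2-null 24 h pool 2, while the other 11 pools ran up to 599.5, and this is the pool without which Ccng1 and Phlda3 passed in Socs2-null liver at 24 h. Of 8 Kupffer cell and macrophage markers 2 rose and 3 fell at 24 h and 2 rose and 2 fell at 36 h, in each genotype. Among them, named after their values were seen, Marco, a scavenger receptor, averaged 1184 ± 321 at 24 h and 116 ± 0.0495 at 0 h in Socs2-null liver, and 813 ± 180.4 at 24 h and 101 ± 15.7 at 0 h in wildtype liver (SD, n = 2 pools each). Clec4f, a Kupffer cell lectin, fell in all 4 comparisons (log2 changes -0.90 to -0.66). The sum of 3 B cell markers was 117 to 119 in Socs2-null and 101 to 139.6 in wildtype liver at 24 h, against 156 to 167 in Socs2-null and 161 to 169 in wildtype liver at 0 h. The sum of 6 sinusoidal endothelial markers was 2215 to 2259 in Socs2-null and 1860.5 to 2073 in wildtype liver at 36 h, against 2803 to 2968 in Socs2-null and 2661 to 2662 in wildtype liver at 0 h. Of these 6, 1 rose and 2 fell in Socs2-null liver at 36 h, and 1 rose and 1 fell in wildtype liver. Of 6 T and NK cell markers and 6 stellate cell markers up to 2 passed in a comparison with 0 h, and the sum of 4 cholangiocyte markers ran from 281 to 355 over the 12 pools. Nkg7 of the T and NK cell markers and Col1a2 of the stellate cell markers were under background in all groups. They are nonetheless among these calls at 36 h, Nkg7 in Socs2-null and Col1a2 in wildtype liver. The part of these differences in the results for the members was not tested.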

How the data were processed

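Per the labels' protocols, 10 micrograms of liver RNA from each pool of 3 animals were made into biotin-labelled cRNA and hybridized to an Affymetrix array. The values are linear intensities as deposited by the authors, for 45141 probe sets on 12 arrays. How the authors corrected background, summarized probes and normalized is not given in the sources used here, and no scaling was added. The platform annotation named 1 gene for 28898 probe sets, and the probe set with the highest mean represented each of 17097 genes. A group was under background when each array lay under the brightest of its 17 tag controls (33.0 to 45.0), and a fold against it is a bound.

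Values were tested as log2(intensity + 16) without a filter, in one group-means model over all arrays with limma 3.58.1 (eBayes with trend and robust, statmod 1.5.0, R 4.3.3). Tests were two-sided, and p-values were adjusted by Benjamini-Hochberg across the genes, with a threshold of 0.05. Groups came from the labels. The fit was tested on simulated data. A fitted fold is that of intensity + 16, and an "at least" fold is a ratio of geometric mean intensities, with the tag control standing for the group under background. The members, lists and tests were chosen with earlier results of these data known. Genes named beyond the members were up to 4 of a list that passed in a comparison, by smallest p (2 for immediate-early and proliferation genes), Cdkn1a, Mdm4, Socs2, the 2 genes most correlated with each member and markers under background in all groups. Other genes, Jun, Ier2, Fosb and Egr1 among them, were named after their values were seen. Alternatives were quantile normalization, centring, pseudocounts of 1 and 64, averaging the probe sets of a gene, dropping the dimmest 25 % of genes, plain eBayes, fitting the compared arrays alone, a replicate block and omitting each array in turn. Testing all probe sets singly was added after the data were seen. Figures used Python 3.11.15 and matplotlib 3.10.9.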

Additional observations from a re-analysis of the deposited data

How the results depend on the processing

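The count of members called kept its value of 0 in the 8 comparisons other than those of 24 h or 36 h with 0 h within a genotype, under all 21 alternatives. In wildtype liver at 24 h the count of 4 ran from 0 to 4 when 1 pool was left out, with 0 without wildtype 0 h pool 1, 1 without wildtype 0 h pool 2 and 2 without wildtype 24 h pool 1 or either Socs2-null 0 h pool, and from 3 to 5 under the 9 other alternatives. At 36 h the count of 4 ran from 1 to 4, with 1 without wildtype 36 h pool 2 or either wildtype 0 h pool and 2 without wildtype 36 h pool 1 or either Socs2-null 0 h pool, and from 3 to 4 under the 9 others. In Socs2-null liver the count of 2 at 24 h was 4 with the mean of all probe sets and ran from 2 to 4 when 1 pool was left out, with 4 without Socs2-null 24 h pool 2, and the count of 3 at 36 h ran from 2 to 4. No called change turned its direction. Mdm2 and Gadd45b in Socs2-null liver at both times and Gadd45b in wildtype liver at 36 h passed under all 21. Leaving out a pool leaves its group with 1 sample, taken to vary like the others. Other losses were Gadd45b in wildtype liver at 24 h with a pseudocount of 64 (adjusted p = 0.065 by limma), Sesn2 there with the mean of all probe sets (0.0768), Sesn1 in Socs2-null liver at 36 h with only the arrays compared (0.0573) and Sesn1 in wildtype liver at 36 h under 5 of the 9 others (0.0506 to 0.108). Btg2 in wildtype liver at 36 h passed with only the arrays compared (0.0137), as did Ccng1 at 24 h (0.0471), and Sesn1 in Socs2-null liver at 24 h passed with quantile normalization or the mean of all probe sets (0.0444 and 0.00861). Ccng1 in Socs2-null liver passed with that mean at 24 h (0.0383) and 36 h (0.037), and with arrays centred on their medians Phlda3 in wildtype liver at 24 h, under background as at 0 h, passed (0.048) and Sesn1 there did not (0.138). The cause of these differences was not tested. Phlda3 was not tested without the dimmest 25 % of genes, since it falls among them.

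Replicate numbers did not pair the pools: deviations of same-numbered pools correlated from -0.50 to 0.35 over 15 pairs of groups, with 3 over 0.1. With the replicate block Sesn1 in wildtype liver at 36 h did not pass (adjusted p = 0.0565 by limma) and Sesn2 in Socs2-null liver at 24 h passed (0.0336).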
